A study of Arabidopsis thaliana with 12 samples.

Results

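GIS (GLABROUS INFLORESCENCE STEMS, At3g58070) and ATMYC1 (At4g00480) are transcription factor genes of Arabidopsis thaliana that act in the formation of trichomes, the unicellular hairs of the plant surface. They are 2 of the 13356 genes that the platform annotation pairs with a probe set of their own, and each is read by 1 of the 22746 probe sets tested. Both were chosen by their log2 differences in the fdh mutant, GIS in fdh against wild type and ATMYC1 in fdh against lcr. Their levels in fdh are therefore given as a description, with no test.

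The study asked how leaf gene expression differs in 3 mutants with a defective cuticle, the waxy and polyester layer that seals the epidermis. The groups were fdh (allele fdh-3940, a 2-bp insertion in exon 1 of FIDDLEHEAD), lcr (allele lcr-3P77, an insertion of 1169 bp in the 5' UTR of LACERATA), bdg (allele bdg-2, a 7-bp deletion in exon 1 of BODYGUARD) and wild type (Columbia-0). Each group had 3 biological replicates on ATH1 arrays, and each replicate pooled young rosette leaves, 2 mm to 1 cm long, of 15 plants grown for 5.5 weeks in days of 8 h light. Each mutant was studied through 1 allele, and the labels name no treatment or transgene.

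A leaf epidermal cell enters the trichome fate when a complex of a MYB protein (GL1), a bHLH protein (GL3 or EGL3) and the WD40 protein TTG1 switches on the homeobox gene GL2. ATMYC1 is a bHLH protein of the same subfamily as GL3 and EGL3 and promotes trichome initiation. GIS is a C2H2 zinc finger protein that acts upstream of this complex in the gibberellin pathway and is best known for trichomes on the inflorescence. Small R3 MYB proteins such as TRIPTYCHON (TRY) and CPC compete with GL1 for the bHLH partner and keep neighbouring cells hairless.

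The deposited values are log2 expression values, made by the authors with GCRMA, which corrects the background by probe sequence, normalizes the arrays to each other and summarizes the probes of a probe set. Array medians lay between 4.56 and 4.70, and a value under 4.56 was not shown to be above background. The 3 mutated genes have no named probe set, so the genotype labels went unchecked. Of the leaf markers, the mesophyll gene RCA (Rubisco activase) read 13.86 to 14.47 on the 12 arrays. The actin control probe sets differed between their 3' and 5' ends by 4.64 to 6.27 on the log2 scale, most on lcr array 1 (6.27), bdg array 1 (6.07) and wild-type array 2 (5.98). In whole leaves, fewer cells of a type and less RNA per cell cannot be told apart.

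The GIS transcript was lowest in fdh. The 3 fdh arrays, numbered 1 to 3, read 5.20, 5.05 and 4.26. The lcr arrays read 6.42, 6.06 and 5.58, and the bdg arrays 6.47, 6.97 and 5.60. Wild type read 8.10, 7.10 and 6.53. Every fdh array lay below every array of the other genotypes, and fdh array 3 lay under the lowest array median. The lcr arrays all lay below the wild-type arrays as well, by a narrow margin (6.42 against 6.53), whereas bdg overlapped both lcr and wild type.

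As genotype means, GIS stood at 4.84 ± 0.50 in fdh and 6.02 ± 0.42 in lcr, and at 6.35 ± 0.69 in bdg and 7.24 ± 0.80 in wild type (SD, n = 3 each). The difference of fdh from wild type was -2.41 on the log2 scale (standard error 0.479), a level 5.30-fold lower. Against bdg the difference was -1.51 and against lcr -1.18, with the same standard error. These 3 comparisons share the fdh arrays and so are not independent of one another.

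**Figure D1:**
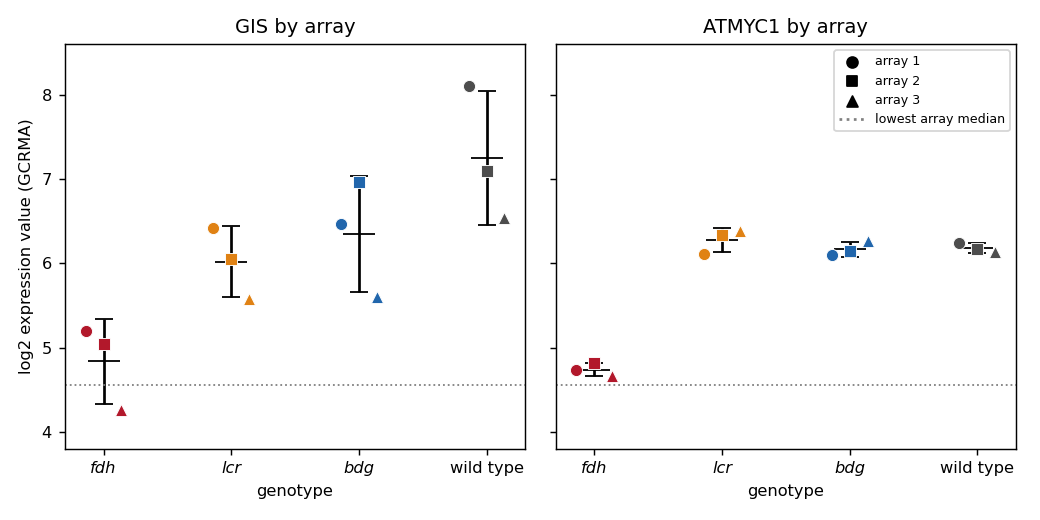
Log2 expression values of GIS (left) and ATMYC1 (right) on each array, by genotype, with the mean and SD over 3 arrays in black and the lowest array median (4.56) dotted. All fdh arrays lie below the other 9 for both genes, the lcr and bdg means of GIS lie between those of fdh and wild type, and ATMYC1 lies between 6.10 and 6.38 on every lcr, bdg and wild-type array.

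ATMYC1 had a different pattern, with 1 low genotype and 3 whose arrays overlapped. Its fdh arrays read 4.74, 4.82 and 4.66, just above or below the median of their arrays (percentiles 49.7 to 51.3). The lcr arrays read 6.11, 6.34 and 6.38, the bdg arrays 6.10, 6.14 and 6.27, and the wild-type arrays 6.25, 6.17 and 6.14. No fdh array came within 1 log2 unit of an array of another genotype, and the arrays of the other 3 genotypes were intermingled.

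The ATMYC1 mean was 4.74 ± 0.077 for fdh, 6.28 ± 0.14 for lcr, 6.17 ± 0.089 for bdg and 6.18 ± 0.056 for wild type (SD, n = 3 each). In fdh the level was lower than in lcr by a log2 difference of -1.54, lower than in bdg by -1.43 and lower than in wild type by -1.44 (standard error 0.0793 for each). As a fold, fdh was 2.72-fold below wild type and 2.90-fold below lcr.

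A position of fdh below all other arrays was shared with many probe sets. Of the 22746 probe sets, 577 (2.54%) had all 3 fdh arrays below the other 9. Ranked by the gap between the highest fdh array and the lowest of the other 9, ATMYC1 came 2nd, with 1.28, and was among the 6 probe sets (0.0264%) with a gap over 1 log2 unit. GIS came 61st, with a gap of 0.37 between fdh array 1 and lcr array 3. Both genes were chosen by differences of the fdh arrays, so these ranks follow in part from the choice and are a description. The fold change of GIS was thus larger than that of ATMYC1 and its separation from the other arrays smaller. The residual SD of the fit was 0.621 for GIS, higher than for 90.6% of the probe sets, and 0.0973 for ATMYC1, at the percentile 29.3.

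**Figure D2:**
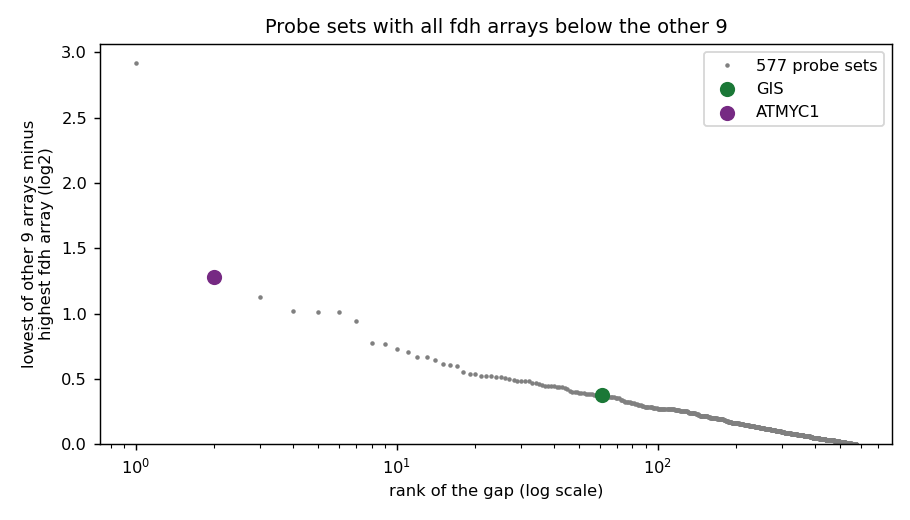
Gap between the lowest of the 9 other arrays and the highest fdh array (log2 units) against its rank on a log axis, for the 577 probe sets with all fdh arrays below the rest. ATMYC1 stands 2nd with a gap of 1.28, and GIS 61st with 0.37. Both were chosen by differences of the fdh arrays.

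The spread of GIS within genotypes had an order. In all 4 genotypes the array numbered 3 was the lowest for GIS. Over all probe sets, the deviations of the arrays numbered 3 from their genotype means correlated with each other at 0.367 to 0.725. The share of probe sets with the order of GIS was not counted. The fdh arrays differed from the wild-type arrays of the same number by -2.90, -2.05 and -2.27, the lcr arrays by -1.69, -1.04 and -0.96, and the bdg arrays by -1.63, -0.13 and -0.93. At each of the 3 numbers the genotypes thus ranked fdh, lcr, bdg and wild type from low to high. Between lcr and bdg the same-number differences were -0.05, -0.91 and -0.03. ATMYC1 had no such order: the lowest array carried the number 3 in fdh and wild type and the number 1 in lcr and bdg. Leaves were gathered in sequential rounds that each held all 4 genotypes, but the labels do not tie an array number to a round, and the part of the rounds in these values was not tested.

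The comparisons without fdh did not choose the members and were tested, although some of them share arrays with a comparison that did. The tests used limma on all 12 arrays, adjusted over 22746 probe sets, and p-values measure the spread between pools of plants. For GIS, lcr against bdg shares no array with the comparison that chose the gene. The difference was -0.33 (95% interval -1.42 to 0.75, adjusted p = 1 by limma). Against wild type, whose arrays took part in the choice of GIS, the difference was -1.23 in lcr (95% interval -2.31 to -0.14, adjusted p = 0.526 by limma) and -0.90 in bdg (95% interval -1.98 to 0.19, adjusted p = 1 by limma). Neither passed, and the intervals leave room for levels several-fold lower in either mutant. Without wild-type array 1 the differences were -0.80 in lcr and -0.47 in bdg, and without bdg array 3 that of bdg was -0.52. The small difference of lcr from bdg was -0.02 without bdg array 2, -0.11 without lcr array 3, -0.53 without lcr array 1 and -0.70 without bdg array 3. Rank Product, the rank-based test of the study, gave a proportion of false positives (pfp) of 0.2347 for a lower level in lcr and 0.5901 in bdg. Among all probe sets, limma called 0.4% in lcr and 0.11% in bdg against wild type, and 0.0044% in lcr against bdg. All lcr arrays lay below all wild-type arrays in 3.59% of the probe sets, GIS among them.

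For ATMYC1, bdg against wild type shares no array with the comparison that chose the gene. The difference was -0.01 (95% interval -0.19 to 0.16, adjusted p = 1 by limma). The lcr arrays took part in the choice of ATMYC1. They differed from wild type by 0.09 (95% interval -0.09 to 0.27, adjusted p = 0.972 by limma) and from bdg by 0.11 (95% interval -0.07 to 0.29, adjusted p = 1 by limma). These 3 intervals are narrow and all lie within 0.3 of 0 on the log2 scale. The pfp of Rank Product against wild type was 0.9289 in lcr for a lower level and 0.9371 in bdg for a higher one. Each is the smaller pfp of both directions and lies on the side opposite to the difference of the means. On the side of that difference the pfp was 1.247 in lcr and 1.116 in bdg.

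**Figure D3:**
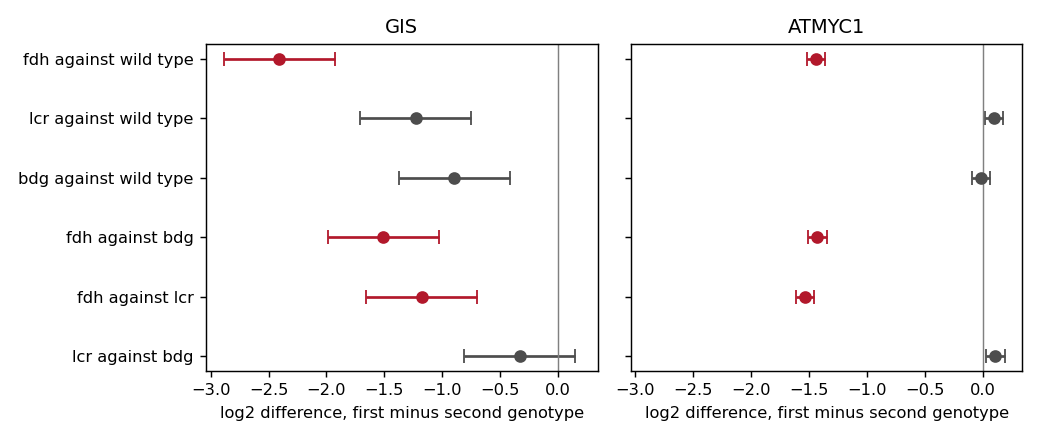
Log2 differences of the genotype means for GIS (left) and ATMYC1 (right) in 6 comparisons, first minus second genotype, with the standard error of the fit as bars. Comparisons with fdh are red and descriptive. ATMYC1 stays near 0 in the 3 comparisons without fdh, and GIS lies below 0 in all 6.

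Over the 12 arrays, the values of GIS and ATMYC1 had a Pearson correlation of 0.70, with the low fdh arrays shared by both, and a Spearman correlation of 0.40. After the genotype means were taken out, the correlation was -0.13. The arrays share their preparation and normalization, so these are descriptions. Beyond the low level in fdh, no variation common to the members was seen. ATMYC1 varied little within genotypes (residual SD 0.0973), so the value of -0.13 cannot show that there was none.

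TRY (At5g53200), the R3 MYB inhibitor of trichome fate, was among the genes most like GIS, at rank 12 of the 4417 genes compared (Pearson r = 0.92 over 12 arrays, and 0.85 within genotypes). TRY read 6.84, 7.11 and 6.61 on the fdh arrays, 7.73, 7.50 and 6.80 on the lcr arrays, 8.56, 8.35 and 6.97 on the bdg arrays, and 9.25, 9.01 and 7.65 in wild type. All fdh arrays lay below all wild-type arrays, as they did in 8.55% of the probe sets, and they overlapped with lcr and bdg. As with GIS, the array numbered 3 was the lowest in each genotype, an order not counted over all probe sets. Against wild type, TRY differed by -1.79 in fdh (standard error 0.515, adjusted p = 0.129 by limma), by -1.29 in lcr (adjusted p = 0.547 by limma) and by -0.68 in bdg (adjusted p = 1 by limma). Rank Product did call TRY lower in fdh, at a pfp of 0.04683, close to its threshold of 0.05. With the replicate number as a block, limma called it too (adjusted p = 0.0205), and likewise without the 4 arrays numbered 3 (difference -2.16, adjusted p = 0.0115). Under the other 18 of 20 alternatives TRY did not pass, with an adjusted p by limma of up to 0.3602.

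By the rule of highest correlation, the 5 genes most like GIS were At4g24700 (r = 0.97), At3g55710 (0.96), At5g48730 (0.94), At1g29530 (0.94) and At5g62130 (0.93). On deviations from the genotype means, their correlations with GIS were 0.79 to 0.95. The 5 genes were picked on these same arrays, and the spread within genotypes took part in the pick. These values are therefore a description and no separate check of the likeness. The part of the array number in them was not tested. At4g24700 averaged 6.72 for fdh, 7.38 for lcr, 7.73 for bdg and 8.17 for wild type, the same order as GIS. The least like were At1g01240 (r = -0.95), At2g15960 (-0.92) and At3g60450 (-0.92), and At1g01240 averaged 6.89 for fdh, 6.11 for lcr, 5.82 for bdg and 5.07 for wild type. The files give these 8 genes no further name.

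The genes most like ATMYC1 were ATLP-1 (At1g18250, a thaumatin-like protein, r = 0.93), At1g48650 (0.91), At4g33400 (0.90), At1g15730 (0.90) and SPCH (0.89). Within genotypes these correlations lay between -0.19 and 0.49, so that most of the likeness was the low fdh level. ATLP-1 averaged 5.25 for fdh, 6.79 for lcr, 6.92 for bdg and 7.05 for wild type. SPCH (SPEECHLESS), the bHLH factor that starts the stomatal lineage, read 5.07, 5.14 and 5.20 on the fdh arrays and 5.52 to 6.12 on the other 9. The least like were APS4 (an ATP sulfurylase, r = -0.95), At1g57630 (-0.94) and At5g42250 (-0.92). APS4 averaged 6.11 for fdh, 3.92 for lcr, 4.10 for bdg and 4.22 for wild type, so its level outside fdh was not shown to be above background.

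**Figure D4:**
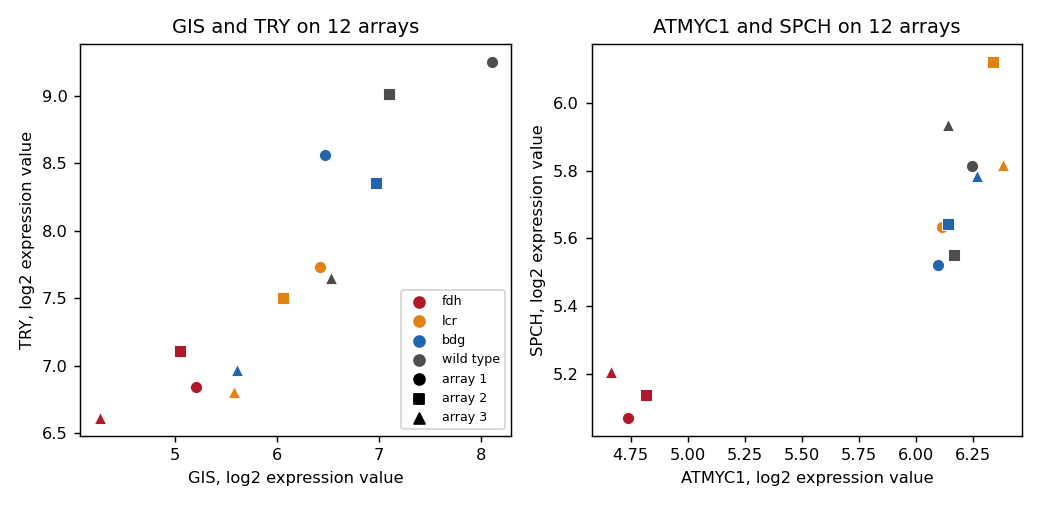
Log2 values of TRY against GIS (left) and of SPCH against ATMYC1 (right) on the 12 arrays, with colour for the genotype and shape for the array number. GIS and TRY descend together over all genotypes (r = 0.92), whereas in the right panel the 3 fdh arrays stand apart from a group formed by the other 9.

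Few other trichome genes could be read. Of 61 genes on 4 lists of trichome regulators, 13 had a named probe set besides the members, and GL1, GL3, EGL3, TTG1, GL2, CPC, GIS2, ZFP8 and ZFP5 had none. The 4 named zinc finger relatives of GIS, GIS3, RBE, JAG and NUB, lay at the floor of the arrays, at 1.99 to 2.57 on every array, so no level was shown for them. None of the 13 genes passed limma in any of the 6 comparisons, in which 2.17% (fdh against wild type), 0.4% (lcr against wild type), 0.11% (bdg against wild type), 0.761% (fdh against bdg), 0.0879% (fdh against lcr) and 0.0044% (lcr against bdg) of all probe sets did. At an unadjusted p under 0.05, limma placed 4 lower and 1 higher in fdh than in wild type, where 14.9% of all probe sets passed in either direction. It placed 2 lower in lcr and 2 lower in bdg than in wild type (7.91% and 4.22% of all probe sets), 1 in each direction in fdh against bdg (12.9%), 1 in each direction in fdh against lcr (7.84%), and none in lcr against bdg (3.1%). Against wild type, Rank Product called TRY alone among the 13, lower in fdh, where it called 1.86% of all probe sets (0.189% lower). It called none of the 13 in lcr (1.13% of all probe sets) or bdg (0.554%).

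The genes of trichome growth and branching took no common direction. PIR, a subunit of the SCAR/WAVE complex that directs actin assembly, read 5.99, 5.61 and 6.61 on the fdh arrays and 6.74, 7.42 and 6.92 in wild type, a difference of -0.96 (adjusted p = 0.231 by limma). Its fdh arrays lay below the wild-type arrays, as in 8.55% of all probe sets. However, bdg array 2, at 6.21, lay within the fdh range. BRK1, another subunit of that complex, differed by -0.38 between fdh and wild type (adjusted p = 0.231 by limma). Its difference from wild type was similar in bdg (-0.38, adjusted p = 0.947 by limma) and lcr (-0.33, adjusted p = 0.590 by limma). ARPC5, a subunit of the ARP2/3 actin nucleator, differed by 0.43 (adjusted p = 0.270 by limma). The median difference of the 7 genes of this list was -0.11 in fdh against wild type, and -0.01 over all probe sets. SIAMESE (SIM), the cell cycle inhibitor that keeps trichomes from dividing, differed from wild type by -0.55 in fdh (adjusted p = 0.145 by limma, and 0.0416 with the actin 3' to 5' difference as a covariate), -0.33 in lcr and -0.46 in bdg. Under the other 19 of 20 alternatives SIM did not pass in fdh, with an adjusted p by limma of up to 0.5169. BLT (BRANCHLESS TRICHOME) lay at 3.18 to 3.75 on all arrays, under the lowest median.

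Gibberellin acts upstream of GIS, and 5 of 25 listed genes of its synthesis and signalling had a named probe set. None passed limma in any of the 6 comparisons, while at an unadjusted p under 0.05 limma placed 3 higher in fdh than in wild type (14.9% of all probe sets passed in either direction), 1 higher in lcr than in wild type (7.91%) and 1 higher in fdh than in bdg (12.9%). The receptor gene GID1B had the lowest p in fdh against wild type. It read 5.81, 5.97 and 5.20 on the fdh arrays, 4.60, 3.99 and 5.18 on the lcr arrays, 3.92, 4.58 and 4.98 on the bdg arrays, and 2.71, 2.56 and 4.53 in wild type. All fdh arrays lay above all wild-type arrays (as in 8.34% of all probe sets), all bdg arrays (8.76%) and all lcr arrays (5.39%). The sign was opposite to that of GIS, and the margin to lcr was 0.02. The share of probe sets with fdh above all 9 others was not counted. However, all wild-type arrays, bdg array 1 and lcr array 2 lay at levels not shown to be above background. The difference of fdh from wild type was 2.40 (standard error 0.546, adjusted p = 0.0640 by limma), and Rank Product called GID1B higher in fdh (pfp = 0.01976), where it called 1.67% of all probe sets higher. The alternatives under which limma called it as well included a trend in the variance (adjusted p = 0.0452). They also included fits without wild-type array 3 (0.0154) and without the 4 arrays numbered 3 (0.0163). Under 16 of 20 alternatives GID1B was not called, with an adjusted p by limma of up to 0.2296. A second receptor gene, GID1A, differed by 1.36 (adjusted p = 0.187 by limma). The median difference of the 5 genes was 0.70 in fdh, 0.44 in lcr and 0.10 in bdg against wild type, beside medians of -0.01, 0.00 and -0.01 over all probe sets.

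The MYB, bHLH and WD40 complex also governs anthocyanin pigment genes, of which 4 of 12 were named. For 3 of them, the wild-type arrays lay farther apart than any 2 genotype means. DFR, an enzyme of anthocyanin synthesis, read 5.29, 2.31 and 4.07 on the fdh arrays and 2.06, 2.37 and 6.57 in wild type, so that 1 wild-type array exceeded all fdh arrays. UF3GT and UGT75C1, glycosyltransferases of the same pathway, were also highest on wild-type array 3, at 6.40 and 5.89, and BAN lay at the floor. Every genotype mean of DFR, UF3GT and UGT75C1 lay under the lowest array median. Only wild-type array 3 and fdh array 1 exceeded that median, so levels on the other arrays were not shown to be above background. None of the 4 passed limma in any comparison, and limma placed none of them at an unadjusted p under 0.05. Rank Product called none of them.

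**Figure D5:**
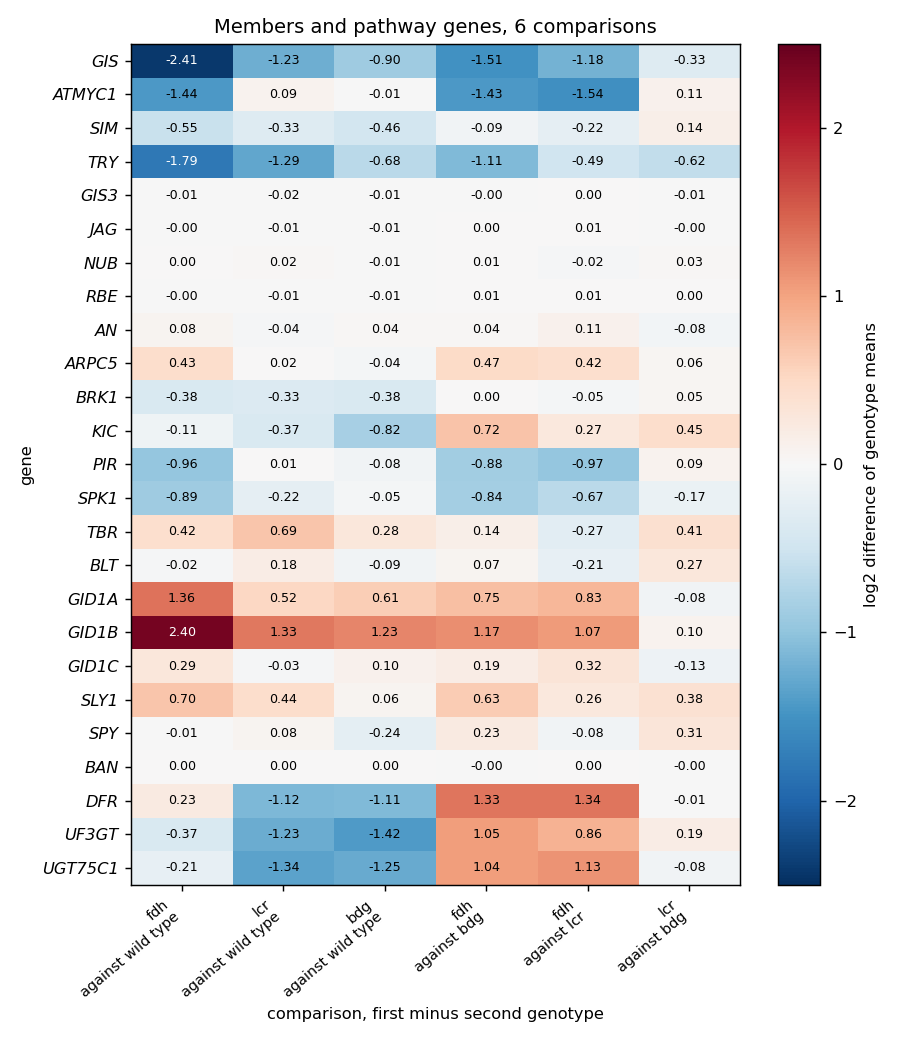
Log2 differences of genotype means (colour and printed value) for GIS, ATMYC1 and 23 listed genes of trichome formation, gibberellin and anthocyanin, in 6 comparisons, first minus second genotype. TRY is the listed gene closest to GIS in sign and size. The values for GID1B against wild type (2.40, 1.33 and 1.23 in fdh, lcr and bdg) did not pass limma and are set against a wild-type mean of 3.27, under the lowest array median.

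Among 7 other named bHLH factors, none passed limma in any of the 6 comparisons or Rank Product against wild type, and 1 was lower in fdh at an unadjusted p under 0.05, both than in wild type (14.9% of all probe sets passed in either direction) and than in bdg (12.9%). For 1 gene of 7, this is a share near that of all probe sets. The gene was bHLH34, at 6.10, 6.10 and 6.01 on the fdh arrays and 7.85, 7.32 and 6.41 in wild type, a difference of -1.13 (adjusted p = 0.252 by limma, and 0.0328 without the 4 arrays numbered 3). It did not pass under the other 19 of 20 alternatives, with an adjusted p by limma of up to 0.5425. Its values followed GIS (r = 0.88, and 0.89 within genotypes) more than ATMYC1 (0.59, and -0.31 within genotypes). The fdh arrays of bHLH34 lay below the other 9 by 0.14, and 2.54% of all probe sets had all fdh arrays below the others. Like GIS, bHLH34 was lowest on the array numbered 3 in each genotype, an order not counted over all probe sets.

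Markers of other epidermal cells were set beside the members. ACR4, the only named gene of 8 epidermis markers, averaged 4.65 ± 0.27 for fdh, 4.90 ± 0.088 for lcr, 4.87 ± 0.35 for bdg and 5.05 ± 0.21 for wild type (SD, n = 3 each). Its fdh arrays lay below the wild-type arrays (adjusted p = 0.387 by limma), as in 8.55% of all probe sets. Of 7 guard cell markers, 4 were named. GC1 averaged 9.11 in fdh and 8.95 in wild type, FAMA 5.80 in fdh and 5.67 in wild type, and MUTE 3.43 in fdh and 3.73 in wild type, under the lowest median in both. Of the 4, only SPCH had all fdh arrays below the other 9, as ATMYC1 did and as 2.54% of all probe sets did. None of the 4 passed limma in any of the 6 comparisons or Rank Product against wild type, and at an unadjusted p under 0.05 limma placed SPCH alone lower in fdh than in wild type (14.9% of all probe sets passed in either direction), bdg (12.9%) and lcr (7.84%). In fdh against wild type, SPCH differed by -0.63, and its adjusted p by limma was 0.0546. SPCH was also picked for its likeness to ATMYC1, so these values are a description. Under 4 of 20 alternatives the adjusted p was under 0.05, at 0.0418 after a second quantile normalization, 0.0489 without lcr array 1, 0.0358 without lcr array 2 and 0.0148 with the actin covariate. The mesophyll marker RCA averaged 14.30 in fdh and 14.24 in wild type. The named markers of vascular tissue, meristem, floral organs and roots numbered 0. The part of cell composition in the low GIS and ATMYC1 values was not tested.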

How the data were processed

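Total RNA of young rosette leaves was hybridized to 12 ATH1 arrays, and the authors deposited log2 expression values per probe set made with GCRMA. Its version is not given in the sources used here. No replicates were pooled. The number of arrays limits the precision. Of 22810 probe sets, 64 controls were left out. The platform annotation paired 13513 with 1 gene, 503 with several (not named) and 8730 with none. Of the named ones, 13436 matched a locus tag of RefSeq (TAIR10.1), used for names only.

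Groups were compared with limma 3.58.1 in R 4.3.3 (lmFit and eBayes, all 12 arrays, no replicate block, no filter, Benjamini-Hochberg, adjusted p under 0.05). Rank Product was written anew from its description (9 ratios of arrays, 100 permutations of values within arrays, pfp under 0.05). Permuting ranks within ratios had been planned, but on simulated unchanged groups it made many calls and became an alternative. Both tests were tested on simulated data.

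The members and gene lists were chosen with earlier results of these data known. The bHLH list and BLT were added once the annotation was known. Tests of the members in any comparison with fdh had been planned in part and were left out, since the fdh arrays led to the choice. The rule for named genes took the members, core trichome regulators, list genes past limma or with the lowest p, and the 5 most and 3 least correlated genes with a mean above the lowest array median and an SD of at least 0.3. PIR, BRK1, ARPC5, GID1A, bHLH34, UF3GT and UGT75C1 and the marker genes were named after their values were seen. No SPL factor of 12 listed had a named probe set. Alternatives were a stricter pfp, a filter on low values (over 5 on at least 3 arrays), the replicate number as a block, quantile normalization a second time, a variance trend, fits to the compared groups alone, fits without each array, fits without wild-type array 2 and bdg array 1 (named by the study for 3' to 5' ratios), and, chosen after seeing the data, actin 3' to 5' differences as a covariate and the arrays numbered 3 left out. No sequence is printed.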

Additional observations from a re-analysis of the deposited data

How the results depend on the processing

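For the members, the 6 tested comparisons were recomputed under 20 alternatives each, and 116 of 120 values kept their direction. None passed limma's threshold under any of them. The 120 values of the 6 descriptive comparisons with fdh, which have no test, all kept their direction. The other 4 tested values, all ATMYC1 in bdg against wild type, changed sign around a difference near 0: 0.0123 without wild-type array 2 and bdg array 1, 0.00473 with the actin covariate, and 0.0163 and 0.0209 without wild-type array 1 or bdg array 1, with values between -0.0651 and 0.0209 over all arrays left out in turn. The pfp of Rank Product there, the smaller of both directions, was 0.9958 without wild-type array 1 and 0.9529 without bdg array 1. It ranged from 0.9234 to 0.9963 over the arrays left out, and its direction was not compared between these settings. Leaving out single arrays moved GIS in fdh against wild type between -2.76 and -1.98 and ATMYC1 between -1.48 and -1.41. The tested GIS differences moved further, between -1.58 and -0.80 in lcr against wild type, -1.25 and -0.47 in bdg against wild type, and -0.70 and -0.02 in lcr against bdg. The Pearson correlation of the members, 0.70, was 0.40 by Spearman and -0.13 on deviations from the genotype means. With ranks shuffled within ratios, the pfp of GIS was 0.0001333 in lcr and 0.0006993 in bdg, but that version made 3913 calls for fdh, 2575 for lcr and 1644 for bdg.

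Counts over all probe sets moved more. As reported, limma called 493, 91 and 25 in fdh, lcr and bdg against wild type, 173 in fdh against bdg, 20 in fdh against lcr and 1 in lcr against bdg, and Rank Product 422, 258 and 126 in fdh, lcr and bdg. With a filter on low values limma called 51 in bdg and 166 in lcr against wild type and 315 in fdh against bdg, and with only the groups compared 53, 6 and 1 in fdh, lcr and bdg against wild type, 16 in fdh against bdg, 0 in fdh against lcr and 0 in lcr against bdg. Without both disturbed arrays the counts were 283 in fdh and 15 in bdg against wild type, 57 in fdh against bdg and 0 in lcr against bdg. With the actin covariate they were 161 in lcr against wild type, 96 in fdh against bdg and 9 in fdh against lcr. Without the arrays numbered 3 they were 42 in lcr and 0 in bdg against wild type, 40 in fdh against lcr and 0 in lcr against bdg. Single arrays left out gave 121 to 854 in fdh, 19 to 93 in lcr and 6 to 36 in bdg against wild type, 27 to 578 in fdh against bdg, 8 to 158 in fdh against lcr and 0 to 4 in lcr against bdg. Rank Product called 96 to 349, 80 to 245 and 43 to 128 in fdh, lcr and bdg when arrays were left out, 279 in fdh and 158 in lcr with the filter, and 160, 95 and 61 at a pfp under 0.01. The cause was not tested.

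The replicate number as a block gave 847 calls in fdh and 152 in lcr against wild type, 336 in fdh against bdg and 11 in fdh against lcr, and moved no other count over all probe sets by over 1.5 times. Among the 13 trichome genes 1 then passed in fdh against wild type. The count was also 1 with the actin covariate and without the arrays numbered 3, and 1 in fdh against bdg without the arrays of that number. The main fit did not take the numbers to pair the arrays, and the labels do not tie a number to a round. Of 18 same-number pairs of deviations, 14 correlated above 0.1 (range -0.356 to 0.725), and 7 of 12 arrays correlated best with an array of their own number. The pairs numbered 3 correlated at 0.367 to 0.725. These values give no ground for leaving out the block, and a pairing by number was not tested.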
